A study of Mus musculus with 6 samples.

Results

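The interleukin-1 family of cytokines, its receptors and the inflammasome genes that process them were followed in 6 primary mouse microglial cultures, 3 of them Dap12-deficient and 3 wild-type. The gene set held 10 of 18193 genes named on the array: the ligand genes Il1a, Il1b, Il18 and Il33, the antagonist gene Il1rn, the receptor genes Il1r1, Il1r2 and Il1rap, the protease gene Casp1 and the sensor gene Nlrp3. A probe set was included when the platform annotation gave it exactly 1 gene symbol and that symbol was one of these, which found 17 of 45101 probe sets on the array. Microglia are brain macrophages, and Dap12, encoded by Tyrobp, is the signalling adaptor of several of their surface receptors, Trem2 among them. For neither genotype do the labels give an allele, strain, sex, age or treatment. Separate animals behind the cultures are not stated either, so the spread that p-values rest on is that between cultures and may be technical. The titles carry 1 number for Dap12-deficient array 3 and wild-type array 2, and 2 numbers for each other array. What these numbers mean is not stated, so the arrays may not be like units.

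Interleukin-1 alpha and interleukin-1 beta are agonists of the same receptor, interleukin-1 receptor 1, which signals only together with its accessory protein Il1rap. The secreted antagonist encoded by Il1rn occupies that receptor without signalling, and Il1r2 is a decoy receptor. Interleukin-1 beta and interleukin-18 are made as inactive precursors that caspase-1 cuts once an inflammasome has formed, for example on the sensor Nlrp3, whereas interleukin-1 alpha and interleukin-33 act as alarm signals of damaged cells. In the brain microglia are a main source of interleukin-1, and the Il1b transcript is usually induced by NF-kB signalling before any processing takes place. Arrays measure transcripts, so cutting and release of these cytokines were not measured.

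Sequences upstream of the start site are shown for Il1a and Nlrp3, the genes whose brightest probe sets separated the genotypes, and for Il1b, which lies on the same chromosome as Il1a and encodes the other agonist of the same receptor. All 10 genes matched RefSeq promoters of the build GRCm38.p6, with 15 start sites between them. Each sequence covers the 250 bases before a start site, 5′ to 3′ on the strand of the gene, and capitals mark matches to the TATA box (TATAAA), the AP-1 motif (TGANTCA) or the NF-kB consensus, searched on both strands. The windows are chr2:129309973-129310222 (minus strand) for Il1a, chr2:129371140-129371389 (minus strand) for Il1b and chr11:59541319-59541568 (plus strand) for the first of the 2 start sites of Nlrp3.
Il1a: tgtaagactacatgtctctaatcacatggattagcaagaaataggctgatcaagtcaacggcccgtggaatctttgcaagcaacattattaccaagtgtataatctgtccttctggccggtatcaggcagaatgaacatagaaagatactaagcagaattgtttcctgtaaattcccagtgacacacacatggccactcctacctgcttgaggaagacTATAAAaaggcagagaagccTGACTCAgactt
Il1b: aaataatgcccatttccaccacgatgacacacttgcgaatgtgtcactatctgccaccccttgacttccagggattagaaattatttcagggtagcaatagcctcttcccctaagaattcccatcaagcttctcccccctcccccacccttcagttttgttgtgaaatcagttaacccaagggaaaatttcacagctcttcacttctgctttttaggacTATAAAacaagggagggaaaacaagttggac
Nlrp3: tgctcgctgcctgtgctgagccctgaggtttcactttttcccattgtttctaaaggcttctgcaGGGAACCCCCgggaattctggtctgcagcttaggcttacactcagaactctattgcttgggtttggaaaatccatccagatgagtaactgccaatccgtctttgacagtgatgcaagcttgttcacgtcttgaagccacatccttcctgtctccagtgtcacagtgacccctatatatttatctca
Il1a and Il1b both held a TATA box close to the start, from position -32 to -27 in Il1a and from -31 to -26 in Il1b. Of 32851 promoter windows of this length, 12.4% held that motif. Il1a also had an AP-1 match from -12 to -6, a motif found in 6.75% of windows. Nlrp3 had a match to the NF-kB consensus from -186 to -177, a motif found in 7.25% of windows, and neither Il1a nor Il1b had one in this window. The core motif of the myeloid factor PU.1 (GAGGAA, in 23.3% of windows) occurred in Il1a from -41 to -36, overlapping no capital, and not in the windows shown for Il1b and Nlrp3. Of the windows not shown, that of the first Il1rn start site had an AP-1 match from -141 to -135 and that of the second Il1r1 start site an NF-kB match from -232 to -223. TATA matches lay from -203 to -198 and from -29 to -24 of the first and second Il33 start sites and from -175 to -170 in Il18, and PU.1 matches from -108 to -103 in Casp1 and at 3 positions before the second Nlrp3 start site. The C/EBP motif (TTNNGCAAT, in 1.93% of windows) occurred in no window of the 10 genes. A match describes letters only, and binding was not measured.

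Tyrobp, the targeted gene, gave signals of 125, 96.4 and 96.2 on Dap12-deficient arrays 1, 2 and 3, against 5584, 7271 and 5396 on wild-type arrays 1, 2 and 3, a fit of -5.64 on the log2 scale (SE 0.20, limma adjusted p = 8.14e-07) that goes with the labels. Where its probes lie relative to the deletion is not given. Microglial markers were bright: the 14 measured genes of that list, led by Csf1r and C1qb, summed to 28110 to 38290 in Dap12-deficient and 34250 to 46350 in wild-type cultures, with 13 of 14 lower by their log2 difference. Markers of other cell types ranged from bright to very dim. The 13 oligodendrocyte lineage genes, led by Mbp and Olig1, summed to 3840 to 9112 against 7790 to 11400. By their log2 difference 11 of 13 were lower, with a median of -1.25, and 9 of these had an unadjusted limma p under 0.05. The 11 astrocyte genes, led by Glul and S100b, summed to 2478 to 3295 against 2031 to 3231. Of them 9 of 11 were higher, with a median of 0.32, while Glul (-0.11) and S100b (-1.04) were lower. The 8 neuron genes, led by Map2 and Gad1, summed to 309.7 to 411 against 390.2 to 497, the 7 fibroblast genes, led by Postn and Col3a1, to 115 to 156 against 113 to 212, and the 6 endothelial genes, led by Kdr and Flt1, to 60.4 to 93.1 against 64.7 to 99.2. The 6 granulocyte and monocyte genes, led by Csf3r and Ccr2, summed to 336 to 529 against 303 to 425, and the 6 lymphocyte genes, led by Cd79b and Cd3e, to 30.9 to 53.6 against 18.9 to 36.7. Of these, 4 of the 6 endothelial and 5 of the 6 lymphocyte genes, Cd3e included, had a mean signal under the filter of 8.51 described below, so no presence is read from them. The 3 measured Y-linked genes, led by Eif2s3y and Uty, summed to 88.4 to 234 in Dap12-deficient and 708 to 781 in wild-type cultures, without overlap. The part of these cell types and of the Y-linked difference in the results below was not tested. A sex term made from the Y-linked genes ran from -1.22 to -0.336 in Dap12-deficient and from 0.57 to 0.838 in wild-type cultures. Sex and genotype therefore cannot be told apart here, and a fit with that term does not test the part of sex. In such bulk samples fewer cells of a type and less RNA per cell cannot be told apart.

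Signals are the linear, scaled values of the arrays. Differences are Dap12-deficient minus wild-type on a log2 scale after adding 16 to each signal, which makes the differences of dim genes look smaller than they are. They come from a limma fit over the 27022 probe sets at or above the 40th percentile of mean signal (8.51), and the threshold was a Benjamini-Hochberg adjusted p of 0.05 over all of them. Of the 17 probe sets, 13 were tested and represented 8 of the 10 genes, while both probe sets of Il1r1, that of Il1r2 and 1 of 5 for Il1rap lay below the filter. With limma 0 of the 13 passed the threshold, which 0.0074% of all probe sets passed. An unadjusted p under 0.05 was found for 3 of 13, 1 each for Il1a, Il1rn and Nlrp3 and all higher. Of all probe sets 10.7% had such a p, 7.05% in the higher and 3.61% in the lower direction. With signals as deposited, every Dap12-deficient array was above every wild-type array in 3 of 13, against 9.6% of all probe sets. In 0 of 13 every array was below, against 6.89%. The median log2 difference over the brightest probe sets of the 8 genes was 0.34, with 5 higher and 3 lower, beside -0.03 over 12875 genes. The higher share among probe sets with such a p depended on scaling: it was 66.1% as deposited, 56.2% with quantile-normalized arrays and 33.7% when arrays were shifted to a common median, a shift that moved the median difference by -0.12.

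**Figure D1:**
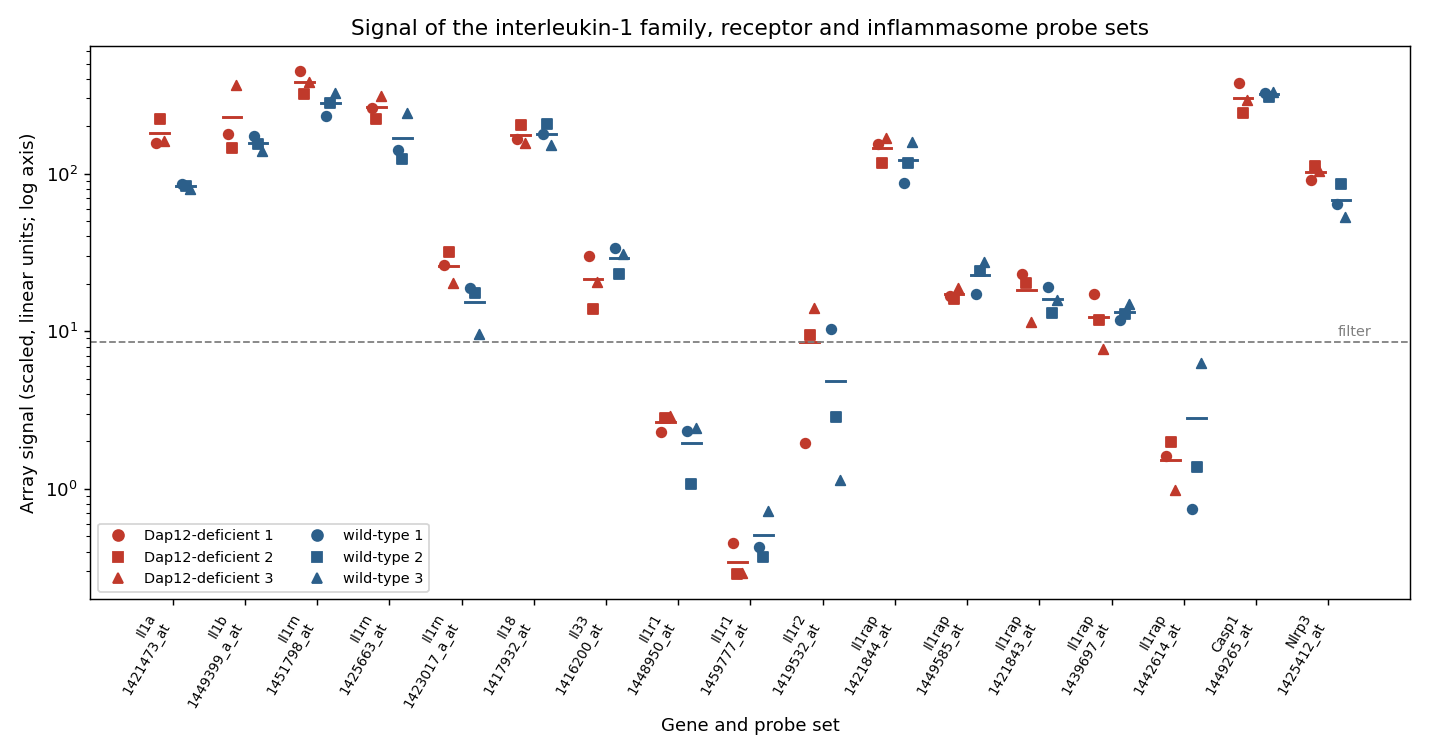
Signal of each probe set on the 6 arrays (log axis, linear scaled units), with Dap12-deficient arrays in red left of wild-type arrays in blue, the array number by marker shape and group means as bars. The dashed line is the filter at a mean signal of 8.51. Il1a and Nlrp3 separate the genotypes, Il1b is high on Dap12-deficient array 3 alone, and Il1r1 lies below the filter on every array.

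Among the agonists, Il1a had the largest difference of the set. Its only probe set (1421473_at) read 156, 223 and 161 on Dap12-deficient arrays 1, 2 and 3, against 86.5, 83.6 and 80.1 on wild-type arrays 1, 2 and 3. The 3 Dap12-deficient arrays were above the wild-type arrays, which lay close together. The means were 180.2 ± 37.3 and 83.4 ± 3.19 (SD, n = 3 each), a ratio of 2.16. The log2 difference was 0.96 (SE 0.20, 95% interval 0.52 to 1.41), with a limma adjusted p of 0.279 and an unadjusted p of 0.000622, so it did not pass. By unadjusted p it was at place 57 of 27022. Over the 17 alternative settings the difference of Il1a lay between 0.72 and 1.08 and the limma adjusted p between 0.124 and 0.692. Shifted to a common median it was 0.85.

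Il1b behaved differently from array to array. Its only probe set (1449399_a_at) read 179, 146 and 364 on Dap12-deficient arrays 1, 2 and 3, against 174, 153 and 140 on wild-type arrays 1, 2 and 3. Dap12-deficient array 3 was by far the highest, array 1 was just above the wild-type range and array 2 was within it, so the groups overlapped. The log2 difference was 0.42 (SE 0.30, 95% interval -0.24 to 1.07, limma adjusted p = 0.636). Without Dap12-deficient array 3 it was 0.05 (SE 0.21), and without Dap12-deficient array 2 it was 0.67 (SE 0.29). On Dap12-deficient array 3 the astrocyte markers had the highest sum of all arrays (3295), close to that of wild-type array 1 (3231). The oligodendrocyte and the microglial markers had their lowest sums on Dap12-deficient array 3 (3840 and 28110). The part of these in the high Il1b signal was not tested. Array 3 was not the highest for Il1a, so the agonists did not share an order of arrays. Pearson's r between their log2 signals over the 6 arrays was 0.31, given as a description of arrays that share their scaling. Whether the difference of Il1a exceeds that of Il1b was not tested.

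Interleukin-18 transcripts lay at similar levels in both genotypes. Il18, whose product drives interferon-gamma production by natural killer and T cells, read 166, 202 and 156 in Dap12-deficient cultures 1, 2 and 3, against 178, 207 and 153 in wild-type cultures 1, 2 and 3. Every Dap12-deficient value lay within the wild-type range. The log2 difference was -0.03 (SE 0.20), and its 95% interval of -0.47 to 0.41 leaves room for a moderate change in either direction (limma adjusted p = 0.969). Il33, the nuclear alarm cytokine that astrocytes and oligodendrocytes make in the brain, was dim and read 30.0, 13.9 and 20.5, against 33.7, 23.0 and 30.8. Arrays 2 and 3 of the Dap12-deficient cultures were below all wild-type arrays, and array 1 was within their range. The difference of Il33 was -0.28 (SE 0.21, 95% interval -0.76 to 0.19, limma adjusted p = 0.657). It was -0.134 without Dap12-deficient array 2 and -0.445 without Dap12-deficient array 1. Oligodendrocyte markers summed to 9112, 4366 and 3840 on the Dap12-deficient arrays in the same order, against 11400, 7790 and 11280 on wild-type arrays, and their part in the Il33 signal was not tested.

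The antagonist gene Il1rn had 3 probe sets, and on each of them the Dap12-deficient mean was higher, although none passed the threshold. The brightest (1451798_at) read 448, 320.1 and 384 on Dap12-deficient arrays 1, 2 and 3, against 234, 281 and 326 on wild-type arrays 1, 2 and 3. Arrays 1 and 3 were above all wild-type arrays and array 2 lay just below the highest of them. The log2 difference of this probe set was 0.43 (SE 0.21, 95% interval -0.03 to 0.90, limma adjusted p = 0.503). The second (1425663_at) read 259, 222 and 312, against 142, 123 and 244, so that here too array 2 overlapped with wild-type array 3. Its difference was 0.64 (SE 0.26, 95% interval 0.07 to 1.21), with a limma adjusted p of 0.425 and an unadjusted p of 0.032. The dimmest (1423017_a_at), of a kind that the manufacturer designed to bind several transcripts of a gene, read 26.2, 31.7 and 20.3, against 18.8, 17.5 and 9.55, and did not overlap. Its difference was 0.43 (SE 0.20, limma adjusted p = 0.492), at signals close to the added 16, and 0.01 (SE 0.60) in the fit with a sex term. With arrays at a common median it was 0.31 (SE 0.20). The nearest arrays, Dap12-deficient array 3 and wild-type array 1, had median signals of 14.6 and 12.3, so their order may depend on the scaling. The first and second probe sets followed each other over the arrays (r = 0.82, 6 arrays), while the dimmest did so weakly (r = 0.28 with the brightest and 0.13 with the other). Il1rn has start sites of secreted and intracellular forms, and which of these each probe set reads is not known here.

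**Figure D2:**
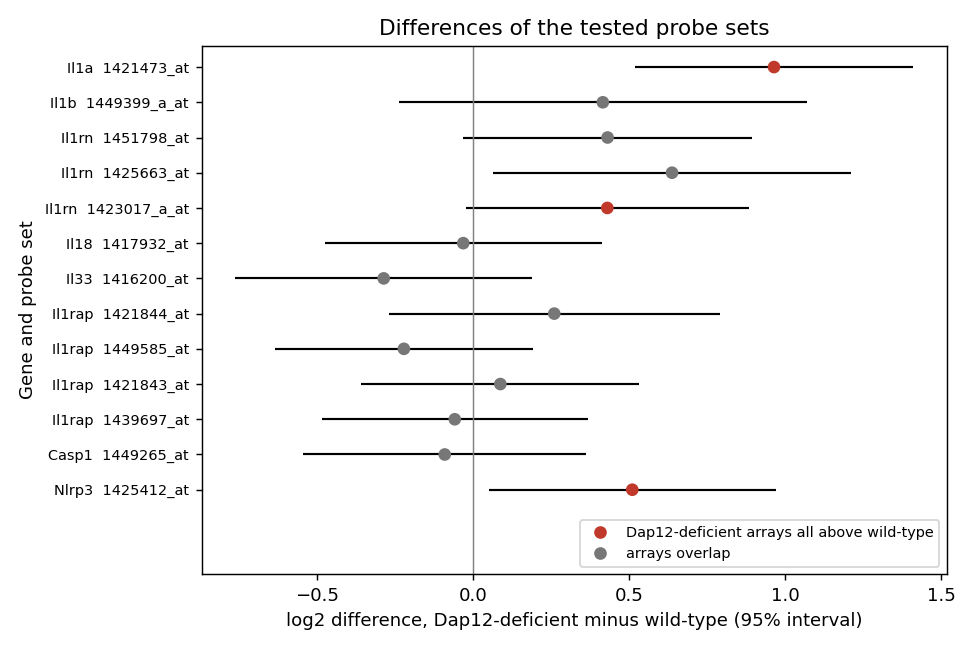
Log2 differences (Dap12-deficient minus wild-type, horizontal axis) of the 13 tested probe sets with 95% intervals from limma, gene and probe set on the vertical axis. Red points mark probe sets whose Dap12-deficient arrays all lie above the wild-type arrays. The interval of Il1a, 0.52 to 1.41, lies farthest from 0, and those of Nlrp3 and Il1rn 1425663_at also exclude 0, while the other 10 include it.

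Receptor transcripts were low or inconsistent between probe sets. Il1r1, the signalling receptor of both agonists, read 2.29, 2.82 and 2.90 on the Dap12-deficient arrays, against 2.33, 1.07 and 2.44 on wild-type arrays, and its second probe set stayed under 1 on every array, from 0.29 to 0.45 against 0.37 to 0.72. These values are below the filter, so no fold is given. Il1r2, the decoy receptor, read 1.95, 9.52 and 14.1, against 10.4, 2.87 and 1.15, with its mean below the filter and no order between the genotypes. A signal this low does not show that a transcript was absent, since detection calls were not used here.

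Il1rap, the accessory protein shared by the receptors for interleukin-1, interleukin-33 and interleukin-36, was the only receptor gene of the set with tested probe sets. Its brightest (1421844_at) read 154, 117 and 168 on Dap12-deficient arrays 1, 2 and 3, against 87.5, 117 and 159 on wild-type arrays 1, 2 and 3. The groups overlapped over most of their range, with a log2 difference of 0.26 (SE 0.24, 95% interval -0.27 to 0.79, limma adjusted p = 0.724). It was 0.07 without wild-type array 1 and 0.45 without wild-type array 3. The dimmer probe sets pointed in both directions. The difference was -0.22 (SE 0.19) for 1449585_at, 0.09 (SE 0.20) for 1421843_at and -0.06 (SE 0.19) for 1439697_at, with limma adjusted p between 0.693 and 0.937. The fifth (1442614_at) lay below the filter, at 0.98 to 1.98 against 0.75 to 6.29. Pearson's r between the brightest probe set and each of the other tested ones ran from -0.27 to 0.30 over the 6 arrays, so they do not describe a common pattern. The array annotation used here does not say which reads the membrane-bound and which the soluble form of the protein.

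The sensor gene and the protease gene of the inflammasome differed in pattern. Nlrp3, which assembles the inflammasome after potassium loss or membrane damage, read 91.8, 112 and 104 on Dap12-deficient arrays 1, 2 and 3, against 64.5, 86.1 and 53.3 on wild-type arrays 1, 2 and 3. As deposited the groups did not overlap, and Dap12-deficient array 1 was nearest to wild-type array 2. These arrays had median signals of 16.4 and 14, so the narrow gap between them may depend on the scaling. With arrays at a common median the log2 difference of Nlrp3 was 0.39 (SE 0.21). The means were 102 ± 9.95 and 68.0 ± 16.6 (SD, n = 3 each), a ratio of 1.51. The log2 difference was 0.51 (SE 0.21, 95% interval 0.05 to 0.97), with a limma adjusted p of 0.426 and an unadjusted p of 0.0324, so Nlrp3 did not pass. Casp1, the protease that cuts the precursors of interleukin-1 beta and interleukin-18, read 374, 243 and 295, against 325, 306 and 329. The wild-type arrays lay close together and the Dap12-deficient arrays spread on both sides of them. The difference of Casp1 was -0.09 (SE 0.20, 95% interval -0.54 to 0.36, limma adjusted p = 0.902).

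Contrasts within an array set the roles against each other. For each array the log2 signal of a gene was subtracted from that of another and the wild-type mean was set to 0, because levels of different probe sets cannot be compared directly. Il1a minus Il1rn was 0.14, 1.07 and 0.39 on Dap12-deficient arrays 1, 2 and 3, against 0.28, -0.01 and -0.27 on wild-type arrays 1, 2 and 3. Only arrays 2 and 3 were above all wild-type arrays, and array 1, where Il1rn was highest, lay within their range. Il1b minus Il1rn was -0.47, -0.28 and 0.70, against 0.39, -0.03 and -0.36, with array 3 above and array 1 below all wild-type arrays. Il1a minus Il1b was 0.61, 1.35 and -0.32, against a wild-type range of -0.11 to 0.09. Here all 3 Dap12-deficient arrays were outside the wild-type range, 2 above it and 1 below.

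The contrasts with Casp1 and that of Il1rap with Il1rn overlapped between the genotypes as well. Nlrp3 minus Casp1 was 0.16, 0.99 and 0.64 on Dap12-deficient arrays 1, 2 and 3, against -0.07, 0.36 and -0.30 on wild-type arrays 1, 2 and 3, with arrays 2 and 3 above and array 1 within. Il18 minus Casp1 was -0.30, 0.54 and -0.06, against -0.02, 0.26 and -0.24, with array 2 above and array 1 below all wild-type arrays. Il1rap minus Il1rn was -0.32, -0.21 and 0.01, against -0.14, -0.02 and 0.17, with arrays 1 and 2 below all wild-type arrays and array 3 within. In all 6 contrasts the genotypes overlapped or lay on both sides, and no test was made of them.

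**Figure D3:**
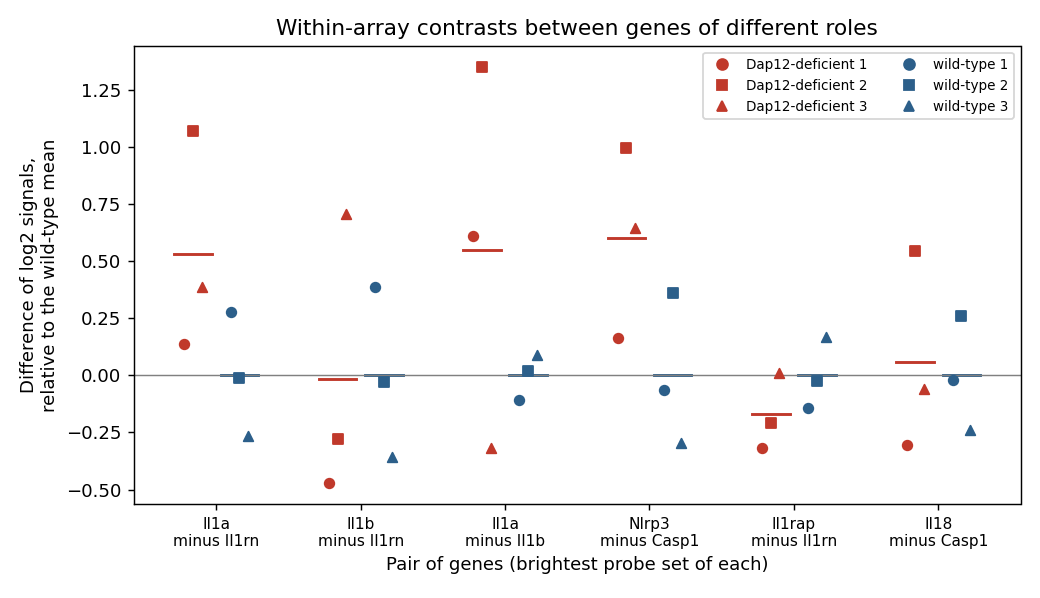
Difference of log2 signals between genes of different roles on each array (vertical axis, wild-type mean at 0), Dap12-deficient in red left of wild-type in blue, with group means as bars. Il1a minus Il1b spreads from -0.32 to 1.35 over the Dap12-deficient arrays, against -0.11 to 0.09 over the wild-type arrays.

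Across the 6 arrays Il1a and Nlrp3 followed each other (Pearson's r = 0.85), while Il33 ran with Casp1 (r = 0.89) and against Nlrp3 (r = -0.80) and Il1a (r = -0.72). Il1rn and Il1rap had r = 0.85. These pairs of genes are described over 6 arrays that share their scaling and fall into 2 genotypes, and they are not tests. The genes of the whole array most like Il1a were Ctbp2 (r = 0.9941), Rfx7 (r = 0.993) and Impact (r = 0.9867), whose log2 differences were 0.36, 0.34 and 0.69. Those most like Il1b were Myh9 (r = 0.9961), Nob1 (r = 0.9936) and Rnf216 (r = 0.9921). The Myh9 probe set read 719, 592 and 1996 on the Dap12-deficient arrays, against 664, 583 and 514, with the same high array 3 as Il1b. Those most like Il33 were Polr3g (r = 0.9967), Tceal1 (r = 0.9858) and Car2 (r = 0.9785). Car2, a carbonic anhydrase that oligodendrocytes also make, read 297, 30.6 and 60.8, against 479, 125 and 465. These are the highest values among 12875 genes over 6 arrays, with no test made.

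Other genes of the pathway were described by lists, each gene with its brightest tested probe set. Of all 12875 genes 7.54% had Dap12-deficient arrays all above wild-type, 8.85% all below and 9.63% an unadjusted p under 0.05, and 0.0155% passed in limma. No gene of the 6 lists passed with all arrays. Among 18 tested genes that interleukin-1 is known to induce in various cells, 16 were higher and 2 lower, with a median log2 difference of 0.39, beside -0.03 over all genes. In 5 of 18 the Dap12-deficient arrays were all above wild-type, in 0 all below, and 4 had an unadjusted p under 0.05. This list was chosen with the higher inflammatory transcripts of these cultures known, so its direction is not independent evidence. Cxcl2, a chemokine that attracts neutrophils, read 2616, 2291 and 3831 on Dap12-deficient arrays 1, 2 and 3, against 1188, 513 and 904 on wild-type arrays 1, 2 and 3, with no overlap. Its difference was 1.77 (SE 0.30, limma adjusted p = 0.179). Ptgs2, the inducible prostaglandin synthase, read 348, 125 and 232, against 79.2, 71.5 and 108, a difference of 1.21 (SE 0.32, limma adjusted p = 0.313). Its dimmer probe set had 0.47.

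Nfkbiz, a regulator of NF-kB targets that interleukin-1 receptor signalling switches on, had differences of 0.99 (SE 0.19), 0.265 (SE 0.30) and 0.92 (SE 0.23) on its 3 probe sets. Tnf read 309, 363 and 781 on the Dap12-deficient arrays, against 262, 333 and 167 on the wild-type arrays, and was highest on array 3, as Il1b was. Its difference was 0.82 (SE 0.35, limma adjusted p = 0.444). Without Dap12-deficient array 2 a pair of these genes passed, Ptgs2 with 1.57 (SE 0.26, limma adjusted p = 0.0325) and Cxcl2 with 1.93 (SE 0.34, limma adjusted p = 0.0389). In that fit 171 of 27022 probe sets passed (0.633%), 155 higher and 16 lower, against 2 with all arrays.

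The genes of interleukin-1 receptor signalling were balanced, with 10 of 20 higher and 10 lower and a median of 0.01. In 2 of 20 the Dap12-deficient arrays were all above wild-type, and 1 had an unadjusted p under 0.05. Sqstm1, the scaffold p62, read 4521, 5176 and 4260 in Dap12-deficient cultures, against 4004, 3702 and 2522 in wild-type cultures, a difference of 0.47 (SE 0.20, limma adjusted p = 0.457). Peli1, a ubiquitin ligase that modifies Irak proteins, had 0.44 (SE 0.22) on its brightest and -0.04 (SE 0.19) on a second bright probe set. Map3k8, the kinase Tpl2, had 0.36 (SE 0.21). Ikbkb, the catalytic kinase of NF-kB inhibitor breakdown, had -0.31 (SE 0.20) on its brightest probe set and 0.89 (SE 0.38) on a dimmer one, so its probe sets disagreed.

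Among inflammasome genes beside Nlrp3 and Casp1, 7 of 17 were higher and 10 lower, with a median of -0.26, where 5820 of all 12875 genes were higher and 7055 lower. An unadjusted p under 0.05 was found for 1 higher and 1 lower gene. In 2 of 17 the Dap12-deficient arrays were all above and in 3 all below wild-type. The microglial markers had a median of -0.32, and their part in the inflammasome list was not tested. P2rx7, the ATP-gated channel that triggers Nlrp3 assembly, read 532, 534 and 892 on Dap12-deficient arrays 1, 2 and 3, against 400, 367 and 346 on wild-type arrays 1, 2 and 3, with no overlap. Its difference was 0.75 (SE 0.23, limma adjusted p = 0.337), with 0.74 and 0.31 on its other probe sets. Nek7, a kinase that binds Nlrp3, read 955, 955 and 678, against 1423, 1551 and 1133, a difference of -0.66 (SE 0.21, limma adjusted p = 0.344). A second Nek7 probe set had 0.74 (SE 0.35) and another -0.185 (SE 0.23), so the direction of Nek7 is uncertain. Gsdmd, the pore former cut by caspase-1, had -0.61 (SE 0.28) with overlapping arrays, and Casp4, the protease of the non-canonical inflammasome, had 0.50 (SE 0.25).

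**Figure D4:**
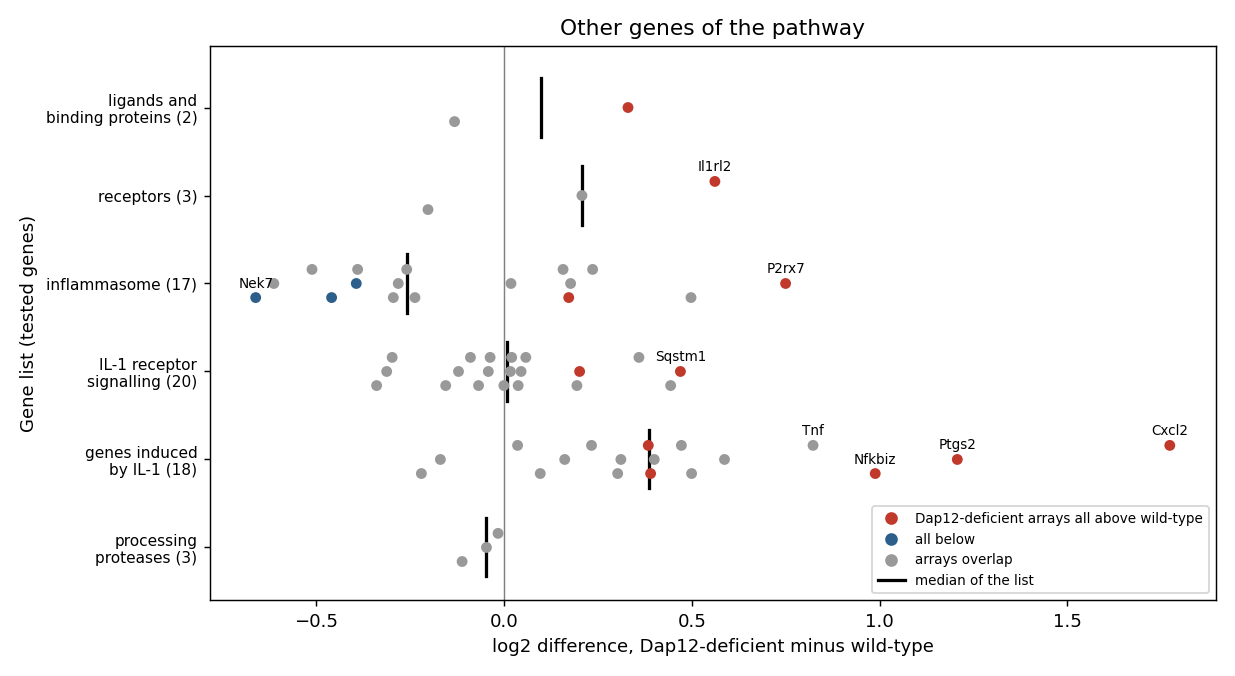
Log2 differences (Dap12-deficient minus wild-type, horizontal axis) of the tested genes of the 6 lists on the vertical axis, 1 point per gene, with the list median as a black bar. Genes with an unadjusted p under 0.05 are named. The median lies at 0.39 for the genes induced by interleukin-1, 0.01 for receptor signalling and -0.26 for the inflammasome list.

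Few genes of the remaining lists were bright enough to test. Of the other ligands and binding proteins, Il18bp, which neutralises interleukin-18, read 30.6, 41.8 and 27.2 in Dap12-deficient cultures, against 24.8, 18.1 and 26.05 in wild-type cultures, a difference of 0.33 (SE 0.20, limma adjusted p = 0.583), and Il1f10 had -0.13 (SE 0.33). Of the other receptors, Il1rl2, the interleukin-36 receptor, read 36.1, 31.5 and 35.2, against 11.4, 23.0 and 20.8, without overlap. Its difference was 0.56 (SE 0.20, limma adjusted p = 0.373), on a probe set of a kind that can bind transcripts of several genes. The inhibitory receptor Sigirr had 0.21 (SE 0.20) and the interleukin-18 co-receptor Il18rap -0.20 (SE 0.24), while 3 of 6 measured receptor genes lay below the filter. Among proteases that can also cut or activate these cytokines, Capn2, which cuts the interleukin-1 alpha precursor, had -0.11 (SE 0.23), Ctsc -0.05 (SE 0.22) and Ctsb -0.02 (SE 0.22), and 4 of 7 were below the filter.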

How the data were processed

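Total RNA of 6 cultures was amplified and labelled with an Affymetrix kit, per the labels' protocols. Values deposited by the authors are intensity on a linear scale, made with GCOS per the submitters' processing notes, and their 2% trimmed mean was 100.0 on each array, so the authors had scaled them. Sources used here do not give the summary algorithm. No array shared values with another. Array numbers follow the order of deposit and pair nothing.

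Signals were used as deposited, log2 was taken after adding 16, 64 control probe sets were left out, and limma 3.58.1 in R 4.3.3 (lmFit, eBayes with an intensity trend, two-sided, no covariate) was run over all probe sets above the filter. The number of arrays limits precision, and no depth applies. Genes, lists and tests were chosen with earlier results of these data known. Named genes were all members, Tyrobp, the 4 genes of each pathway list with the smallest p, the 3 most correlated with Il1a, Il1b and Il33, and the 2 brightest markers of each cell type. The brightest tested probe set stood for a gene in lists. Alternative settings were a pseudocount of 1 or 64, arrays quantile-normalized or set to a common median, no filter or the 60th percentile, other eBayes priors, array weights, a term for the numbers in the titles, a sex term from the Y-linked genes, 1 probe set per gene and leaving out each array. The contrast of Il1r1 with Il1r2 was not made, because both were below the filter. Promoters came from RefSeq, and matplotlib 3.10.9 under Python 3.11.15 drew the plots.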

Additional observations from a re-analysis of the deposited data

How the results depend on the processing

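Under the 18 alternative settings run, 0 member probe sets passed the threshold. Il1a, Il1b, Nlrp3, Il33, the brightest Il1rap probe set and the 3 Il1rn probe sets kept their sign in every setting that tested them, but not their size. The sex term differs between the genotypes without overlap and came with standard errors of 0.54 to 0.789. A sign kept in the fit with this term does not separate sex from genotype. With it Il1a had 1.08, Il1b 1.54, Nlrp3 0.799, Il33 -1.01, Casp1 -0.688 and the brightest Il1rap probe set 0.678, while Il1rn 1425663_at had 1.12, 1451798_at 0.245 and 1423017_a_at 0.01 (SE 0.602). The direction turned for Il18 with array weights (0.00593), and leaving out 1 array it ran from -0.13 to 0.0685. Il1rap 1449585_at turned with the sex term (0.0879). Il1rap 1421843_at turned when quantile-normalized (-0.0118), at a common median (-0.0295) and with the sex term (-0.755), and leaving out 1 array ran from -0.0147 to 0.24. Leaving out 1 array, Il1rap 1439697_at ran from -0.183 to 0.0638 and Casp1 from -0.242 to 0.0518. The cause was not tested. Over all probe sets 2 passed, against 4 with array weights, 11 with the sex term and 4 with 1 probe set per gene, where fewer were tested. Leaving out 1 array the count ran from 2 to 171, with 171 without Dap12-deficient array 2 and 15 without Dap12-deficient array 1. Pathway genes past the threshold numbered 0, and from 0 to 2 leaving out 1 array. Leaving out 1 array, the mean of Il1a minus Il1rn (0.533) ran from 0.262 to 0.731, that of Il1a minus Il1b (0.548) from 0.147 to 0.98, that of Il1b minus Il1rn (-0.0152) from -0.375 to 0.213, that of Il18 minus Casp1 (0.0592) from -0.182 to 0.242, that of Nlrp3 minus Casp1 (0.6) from 0.404 to 0.819 and that of Il1rap minus Il1rn (-0.171) from -0.262 to -0.0878. No paired analysis was possible because the titles give the genotypes no shared replicate numbers. Signals of Il1r1 and Il1r2 under the filter limit what can be said of the receptors.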
